A study of Mus musculus with 6 samples.

Results

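The histone genes of mouse are described here across 6 single-cell RNA libraries of a differentiated intestinal epithelium exposed to endoplasmic reticulum (ER) stress. Members were the genes whose GENCODE vM21 symbol begins with Hist1h to Hist4h, H1f, H2af or H3f, which gave 82 of the 27998 genes in the deposited matrix. Of these, 66 carry a cluster name (Hist1h to Hist4h) and 16 carry the name of a replacement or linker variant. Monolayers grown from intestinal organoids were given the solvent DMSO, tunicamycin at 0.5 µg/ml for 13 h, or tunicamycin at 0.5 µg/ml for 25 h, with 2 libraries per group that the series text calls biological replicates. Tunicamycin blocks N-linked glycosylation and so causes ER stress. Treatment began on differentiation day 3 and harvest was on day 4 for all groups. The 13 h monolayers stood in DMSO for 12 h before tunicamycin was added, so they were harvested at the same time as the others. All groups share a B6 strain made by crossing Rosa26-floxed STOP-Cas9 with cmv-cre mice. Donor ages are not stated in the labels. The tissue label names small intestine while the growth protocol names colonic spheroids.

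Histones package DNA into nucleosomes, each made of the core histones H2A, H2B, H3 and H4, with H1 bound to the DNA between them. The cluster genes are mostly replication-dependent: they are transcribed in S phase, and their mRNAs end in a stem-loop rather than in a poly(A) tail. Replacement variants such as H3.3 and H2A.Z are made throughout the cell cycle from polyadenylated mRNAs, and in cells that no longer divide, such as enterocytes, they are the main supply of new histone. The libraries were made with a 3' chemistry that captures poly(A) RNA, so a count here is a number of molecules captured in this way. Each is marked by a unique molecular identifier (UMI).

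The stem-loop is shown first because it marks the 3' end of replication-dependent mRNAs. The pattern searched has 16 bases that begin with GG, hold CTTTT in the middle and end with CC, with AG between; the capitals below spell it out. On the sense strand within 150 bases after the stop codon it was found in 47 of 22527 protein-coding genes of the annotation, which is 0.209%. Of these, 43 were members: 42 of the 66 cluster genes and, among the 16 variants, H2afx. The sequences below are those of the members whose counts are described next, with the 16-base stem-loop in capitals and up to 4 neighbouring bases on each side in lower case, taken from the GENCODE transcripts on GRCm38.
Hist1h1c: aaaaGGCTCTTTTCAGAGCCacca
Hist3h2a: caaaGGCTCTTTTCAGAGCCaccc
Hist2h3c1: caaaGGCTCTTTTCAGAGCCacca
Hist2h3c2: caaaGGCTCTTTTCAGAGCCacca
Hist2h4: taacGGCCCTTTTTAGGGCCaacc
Hist1h4i: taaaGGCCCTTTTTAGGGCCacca
Hist1h4h: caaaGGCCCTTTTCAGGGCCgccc
Hist1h2ap: aaaaGGCTCTTTTCAGAGCCatc
H2afx: caaaGGCCCTTTTAAGGGCCacca
The H1, H2A and H3 genes in this set have the same 16 bases, and the H4 genes and H2afx have a stem of another composition. The annotated transcript ends 3 bases after the stem-loop in Hist1h2ap and 46 bases after it in Hist1h4h. In other genes the model runs on: by 840 bases in Hist1h1c, 1643 in Hist3h2a, 1167 in Hist2h3c1, 377 in Hist2h3c2, 1257 in Hist2h4, 330 in Hist1h4i and 822 in H2afx.

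Cluster genes whose model runs at least 200 bases past the stem-loop had more UMIs than those whose model ends near it. The 17 such genes had a median of 310 UMIs over all libraries, and 11 of them reached 100 UMIs. The 25 genes with a stem-loop and a shorter end had a median of 10 UMIs, and 5 of them reached 100. For 16 of the other 24 cluster genes the search says nothing: 15 models end within 2 bases of the stop codon and 1, Hist1h2al, has no coding sequence. The remaining 8, with at least 16 bases to search, did not hold the pattern within the window, and among them was Hist1h2bc, with 85552 UMIs the most abundant cluster gene. Likewise, the 16 cluster genes with a poly(A) signal (AATAAA or ATTAAA) in the last 50 bases of the model had a median of 324 UMIs, against 6.5 in the 50 without it, which include the 15 models that end at the stop codon. These are descriptions of annotated models and counts. Where the captured molecules end was not measured here.

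**Figure D1:**
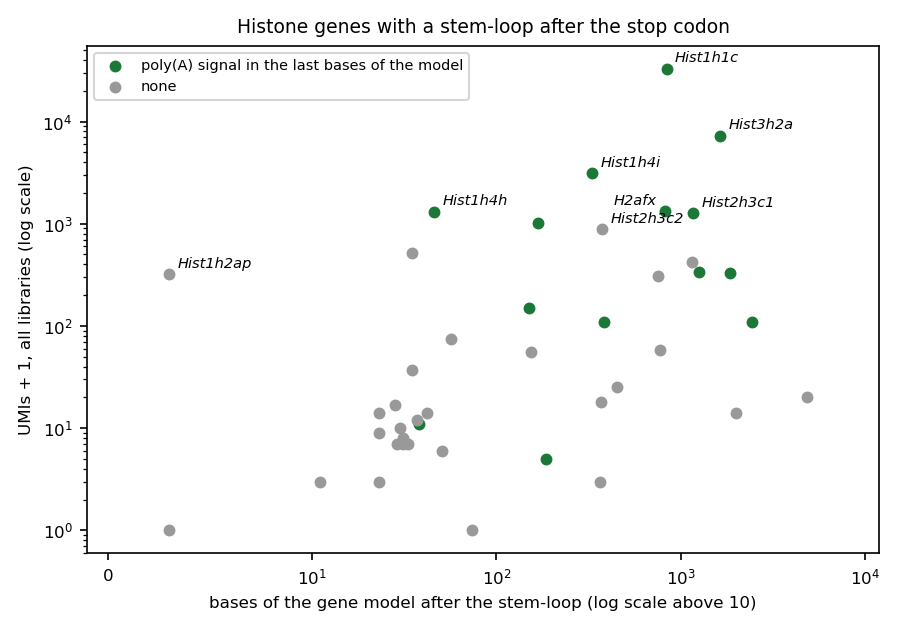
UMIs over all 6 libraries (plus 1, log scale) against the bases of the gene model after the stem-loop (log scale above 10), for the 43 histone genes with the stem-loop pattern. Green points have a poly(A) signal in the last 50 bases of the model and grey points have none, and Hist1h1c with 32952 UMIs lies at the top with 840 bases after the stem-loop.

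The counts were concentrated in few members. Replacement and linker variants held 376591 UMIs over the kept cells and cluster genes 136948. Of the cluster UMIs, 62.5% were from Hist1h2bc, which encodes an H2B, 86.5% from Hist1h2bc and Hist1h1c together, and 91.8% with Hist3h2a added. Hist1h1c encodes the linker histone H1.2, and Hist3h2a an H2A. Of the 82 members, 14 had no UMI, 24 had 2 to 9 UMIs and 14 had 10 to 36, which together made 0.0678% of histone UMIs. These 52 members did not pass the filter on low counts. The other 30, from 55 UMIs upwards, were tested: 22 cluster genes and the variants H3f3a, H3f3b, H2afz, H2afv, H2afj, H2afy, H2afx and H1f0. A gene that passed only through the group in which it is high had to differ, so the counts below describe the tested members and not the family.

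The deposited classes were checked against marker genes. Goblet markers summed to between 79340 and 196900 UMIs per 1000000 in the class named goblet, against 2365 to 3943 in enterocytes. The class named tuft did not carry its markers evenly: in DMSO its tuft markers summed to 62.9 and 67.6 per 1000000 and its enteroendocrine markers to between 1548 and 3908. It had 12 to 27 cells per library, and its values are given below without a direction. Kept cells numbered 1178 and 1165 in DMSO, 780 and 821 at 13 h, then 537 and 545 at 25 h, with 18436637 to 19539013 UMIs per library in DMSO, 13749261 and 14632619 at 13 h, then 9432005 and 10374201 at 25 h. Mitochondrial UMIs were 8.99% and 9.0% in DMSO, 8.43% and 8.84% at 13 h, then 7.52% and 7.24% at 25 h. In all cells, all 10 tested enterocyte markers fell at both times. Within enterocytes, all 10 also fell at both times, where 23.8% and 24.2% of all genes fell. Their median log2 fold change there was -0.95 at 13 h and -1.70 at 25 h. In that class the 14 enterocyte markers summed to between 7132 and 7380 UMIs per 1000000 in DMSO. They summed to between 4785 and 5058 at 13 h and between 3648 and 3689 at 25 h. Over all cells, the 9 tuft markers summed to between 3.47 and 3.84 UMIs per 1000000 in DMSO. They summed to between 13.6 and 26.3 at 13 h and between 5.88 and 15.9 at 25 h. At such counts a tuft marker could pass the count filter through the 13 h libraries alone, so calls of these markers are not given. The class named tuft had 17 and 20 cells at 13 h. Of the enteroendocrine markers, in all cells, 3 of 3 tested fell at 13 h and 1 of 3 at 25 h. Within goblet cells, 6 of 9 goblet markers fell at 13 h and 7 of 9 at 25 h, and 1 rose at each time. Goblet cells numbered 105 and 109 in DMSO, 77 and 75 at 13 h, then 98 and 86 at 25 h. In sums over all cells, fewer cells of a type and less RNA per cell cannot be told apart, so values within enterocytes and within goblet cells are given further below. The part of these features in the histone results was not tested.

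Across all cells, the summed cluster genes took a larger share of all UMIs under tunicamycin, most at 13 h, while the summed replacement variants did not. Cluster genes made 1382 and 1386 UMIs per 1000000 in DMSO, 1886 and 1853 at 13 h, then 1565 and 1598 at 25 h. Each tunicamycin library was above both DMSO libraries, and both 13 h libraries were above both 25 h libraries. Replacement variants made 4341 and 4421 UMIs per 1000000 in DMSO, 4387 and 4368 at 13 h, then 4446 and 4251 at 25 h. Those groups overlapped. Exact 95% Poisson intervals, which cover counting error only, were 1862.8 to 1908.8 for cluster genes in the first 13 h library and 1365.7 to 1398.7 in the first DMSO library. Of the cluster genes, Hist1h2bc and Hist1h1c carry most of this sum and most of its rise at 13 h. Hist1h1c held 5875 of 27006 and 5633 of 25556 cluster UMIs in the DMSO libraries. It held 7430 of 25927 and 7737 of 27114 at 13 h, then 2872 of 14764 and 3405 of 16581 at 25 h. The sum is therefore not a result about the cluster genes as a group. These are shares of total UMIs, without the scaling of libraries used in the tests below. Against that scaling, total counts shifted the log2 fold changes of all genes by a median of 0.080 at 13 h and 0.068 at 25 h.

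Gene by gene, 16 tested members rose and 3 fell at 13 h against DMSO, by edgeR's quasi-likelihood test with a Benjamini-Hochberg adjusted p below 0.05. Of all 11474 genes tested, 21.4% rose and 24.3% fell. Among the members, 13 of the 22 cluster genes and 3 of the 8 variants rose, and the 3 that fell were all variants. At 25 h against DMSO, 12 members rose and 4 fell, where 24.5% of all genes rose and 26.1% fell. These were 9 cluster genes and 3 variants that rose, and 1 cluster gene and 3 variants that fell. The median log2 fold change of the tested members was 0.36 at 13 h and 0.23 at 25 h, beside -0.01 and 0.01 for all genes tested. Between 25 h and 13 h, 3 members fell (Hist1h1c, Hist2h3c2 and H1f0) and 0 rose in edgeR, where 9.6% of all genes fell and 8.95% rose. At an unadjusted p below 0.05, 2 rose and 6 fell there, and DESeq2 called 0 higher and 2 lower. Both tunicamycin groups are compared with the same 2 DMSO libraries, so the comparisons are not independent of each other.

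**Figure D2:**
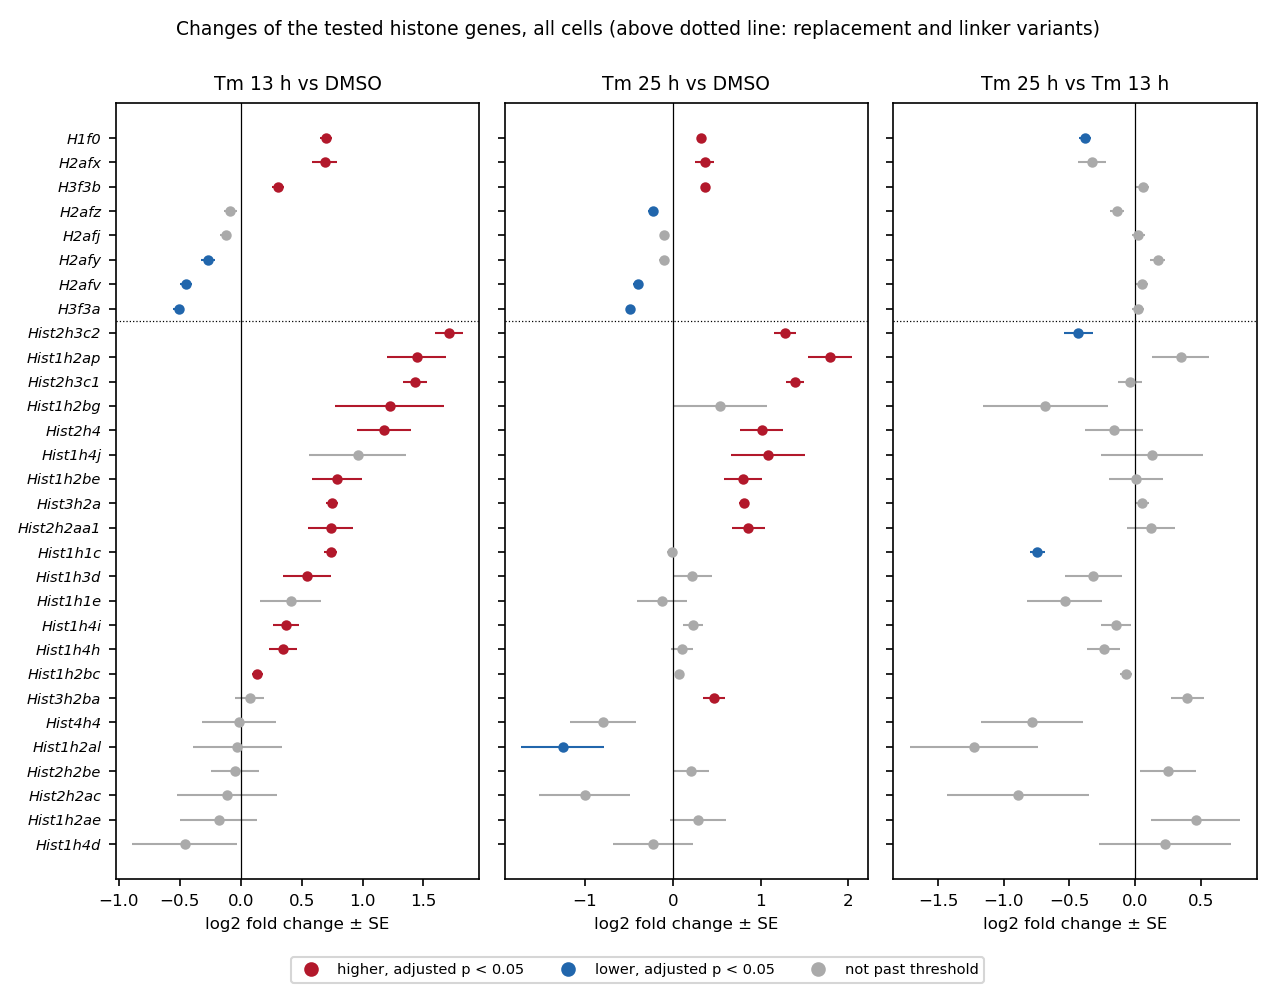
Log2 fold change with its standard error (x axis) of the 30 tested histone genes (y axis), in sums over all cells, for 13 h against DMSO, 25 h against DMSO and 25 h against 13 h. The 8 variants stand above the dotted line and the 22 cluster genes below it; red points rose and blue points fell in edgeR, and H3f3a and H3f3b lie on opposite sides of 0 in the left and middle panels.

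The variants that encode H3.3 moved in opposite directions. H3f3a (chr1:180800832-180813943, minus strand, GRCm38) was at 1498 and 1547 CPM (counts per 1000000, from TMM-scaled libraries) in DMSO, 1075 and 1065 at 13 h, then 1099.7 and 1075 at 25 h. H3f3b (chr11:116021912-116027962, minus strand) was at 1205 and 1258 CPM in DMSO, 1528 and 1519 at 13 h, then 1613 and 1557 at 25 h. Every tunicamycin library was below both DMSO libraries for H3f3a and above both for H3f3b. At 13 h against DMSO, H3f3a fell by 0.51 ± 0.05 on the log2 scale (SE, edgeR adjusted p = 2.79e-06). At 25 h it fell by 0.49 ± 0.05 (edgeR adjusted p = 3.14e-06). H3f3b rose by 0.31 ± 0.05 at 13 h (edgeR adjusted p = 2.06e-04) and by 0.36 ± 0.05 at 25 h (edgeR adjusted p = 4.56e-05). Between 25 h and 13 h the log2 difference was 0.02 ± 0.05 for H3f3a and 0.06 ± 0.05 for H3f3b, and neither passed the test.

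These genes encode the same protein of 136 residues from different coding sequences, which differ at 95 of 411 bases and in 83 codons. In the last 500 bases of either model, 0% of the 50-base words occur at another annotated locus, so in that stretch their sequences can be told apart. Within a library, the ratio of H3f3b to H3f3a UMIs was 0.804 and 0.813 in DMSO, 1.42 and 1.43 at 13 h, then 1.47 and 1.45 at 25 h. The ratio was below 1 in both DMSO libraries and above 1 in the 4 tunicamycin libraries. It does not depend on the scaling of the libraries, and it is set between libraries rather than read as a ratio of amounts. The antisense gene H3f3aos, which the symbol rule includes, had 13 UMIs in all and was not tested.

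Their promoters are shown because the genes moved apart. Each is the RefSeq window on GRCm38.p6 from 250 bases before to 50 after the start, 5′ to 3′ on the minus strand, at chr1:180813556-180813855 for H3f3a and chr11:116024455-116024754 for H3f3b. Capitals mark CCAAT on either strand. They also mark TATAAA and the octamer ATTTGCAT, known from histone H2B promoters, on either strand.
H3f3a: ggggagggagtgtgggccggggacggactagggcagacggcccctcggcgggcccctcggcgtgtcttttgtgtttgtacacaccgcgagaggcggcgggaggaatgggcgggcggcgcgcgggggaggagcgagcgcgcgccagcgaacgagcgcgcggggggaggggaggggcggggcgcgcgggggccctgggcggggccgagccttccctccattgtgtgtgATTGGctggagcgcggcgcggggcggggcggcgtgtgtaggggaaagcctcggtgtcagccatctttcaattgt
H3f3b: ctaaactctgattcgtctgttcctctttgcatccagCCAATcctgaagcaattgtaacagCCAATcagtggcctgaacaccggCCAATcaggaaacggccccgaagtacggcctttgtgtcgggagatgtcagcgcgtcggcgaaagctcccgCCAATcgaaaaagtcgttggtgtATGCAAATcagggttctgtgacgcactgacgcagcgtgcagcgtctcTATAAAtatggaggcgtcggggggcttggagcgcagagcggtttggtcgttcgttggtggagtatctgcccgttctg
The H3f3a window holds 1 CCAAT, no TATAAA or octamer, 39 CG dinucleotides and 74% G and C. The H3f3b window holds 4 CCAAT, 1 TATAAA, 1 octamer, 24 CG dinucleotides and 55% G and C. On either strand, CCAAT occurs in 37.4% of 32851 promoters of this length, TATAAA in 13.6% and ATTTGCAT in 1.74%. Among the 60 cluster genes with a matched promoter, 51 hold CCAAT, 35 TATAAA and 13 the octamer, and among the 14 variants 9, 1 and 1. A member gene counts here if any of its windows holds the motif, while the shares of all promoters count single windows. Of motifs named for the stress response, TGACGTCA (the cyclic AMP response element) occurs in 4 of the 60 cluster genes and in 1.79% of all promoters. TGATGCAAN (bound by CHOP and ATF4), TGACGTGG and the ER stress element, which begins with CCAAT, were found in no matched member, and in 0.889%, 0.676% and 0.119% of all promoters. A match is a description of letters, not of binding.

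The H2A variants did not move as a group. H2afv (chr11:6427229-6444443), which encodes H2A.Z.2, was at 402 and 412 CPM in DMSO, 295 and 300.0 at 13 h, then 319 and 298 at 25 h. H2afz (chr3:137864487-137866922), which encodes H2A.Z.1, was at 407 and 430.3 CPM in DMSO, 409 and 381 at 13 h, then 362 and 354 at 25 h. H2afv was lower in every tunicamycin library than in either DMSO library, while H2afz at 13 h overlapped DMSO and at 25 h did not. H2afv fell by 0.45 ± 0.05 on the log2 scale at 13 h (edgeR adjusted p = 1.53e-05) and by 0.40 ± 0.05 at 25 h (edgeR adjusted p = 3.39e-05). H2afz fell by 0.23 ± 0.05 at 25 h (edgeR adjusted p = 0.00365), and its log2 difference at 13 h was -0.08 ± 0.05 (edgeR adjusted p = 0.21). The encoded H2A.Z proteins differ at 3 of 128 residues.

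H2afj, which encodes H2A.J, was at 604 and 615 CPM in DMSO, 557 and 561 at 13 h, then 548 and 588 at 25 h. All tunicamycin values were below both DMSO values, but its differences of -0.12 ± 0.05 and -0.10 ± 0.05 on the log2 scale did not pass (edgeR adjusted p = 0.0546 and 0.105). H2afy, which encodes macroH2A1, a variant enriched on repressed chromatin, was at 154 and 149 CPM in DMSO, 132 and 119 at 13 h, then 143 and 139 at 25 h. It fell by 0.27 ± 0.06 at 13 h (edgeR adjusted p = 0.00185), and its difference of -0.10 ± 0.06 at 25 h did not pass (edgeR adjusted p = 0.166). Without the second 13 h library the adjusted p of H2afy at 13 h was 0.0581. H2afx, the variant phosphorylated at DNA breaks and the member with a replication-type stem-loop outside the clusters, was low, at 12.4 and 12.1 CPM in DMSO, 18.7 and 20.7 at 13 h, then 17.2 and 14.4 at 25 h. It rose by 0.69 ± 0.10 at 13 h (edgeR adjusted p = 1.61e-04) and by 0.36 ± 0.11 at 25 h (edgeR adjusted p = 0.018). The 25 h call of H2afx was lost with DESeq2 and without the second DMSO or the first 25 h library, with an adjusted p of up to 0.193.

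Of the 3 tested linker histone genes, H1f0 and Hist1h1c rose at 13 h and were lower at 25 h than at 13 h, while Hist1h1e passed no test. H1f0 (chr15:79028450-79030504) encodes H1.0, the linker histone that builds up in differentiated cells. It was at 180 and 187 CPM in DMSO, 299 and 297 at 13 h, then 232 and 226 at 25 h. Hist1h1c (chr13:23738808-23740367) was at 309 and 319 CPM in DMSO, 531 and 516 at 13 h, then 297 and 328 at 25 h. The groups of H1f0 were apart at all times, with 13 h highest, and the 25 h libraries of Hist1h1c stood on either side of the DMSO values. H1f0 rose by 0.70 ± 0.05 at 13 h (edgeR adjusted p = 2.35e-07) and by 0.32 ± 0.05 at 25 h (edgeR adjusted p = 1.44e-04). Hist1h1c rose by 0.74 ± 0.05 at 13 h (edgeR adjusted p = 5.52e-07), and its difference of -0.01 ± 0.06 at 25 h did not pass (edgeR adjusted p = 0.942). Against 13 h, Hist1h1c at 25 h fell by 0.74 ± 0.06 (edgeR adjusted p = 3.8e-06) and H1f0 by 0.38 ± 0.05 (edgeR adjusted p = 1.87e-04).

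The spread over cells of Hist1h1c and H1f0 followed the sums. With each cell thinned to 5000 UMIs, which left out 4 to 22 shallower cells per library, Hist1h1c was seen in 66.0% and 63.8% of cells in DMSO, 82.1% and 80.8% at 13 h, then 65.3% and 67.4% at 25 h. Unthinned, those shares were 88.5% and 86.4%, 96.9% and 94.5%, and 89.4% and 89.0%. H1f0 was seen in 50.9% and 54.0% of thinned cells in DMSO, 69.5% and 67.6% at 13 h, then 64.5% and 63.5% at 25 h, and unthinned in 82.3% and 82.2%, 91.5% and 91.8%, and 89.4% and 89.7%. The 13 h shares were above the DMSO shares for both genes. Hist1h1e, the other tested H1 of the clusters (H1.4), had differences of 0.41 ± 0.25 at 13 h and -0.12 ± 0.29 at 25 h from DMSO, and -0.53 ± 0.29 at 25 h from 13 h, that did not pass (edgeR adjusted p = 0.208, 0.75 and 0.225). Of its 50-base words at the 3' end, 99.1% also occur in Hist1h2be or Gm11398. Both overlap it on the same strand, so its counts are uncertain.

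**Figure D3:**
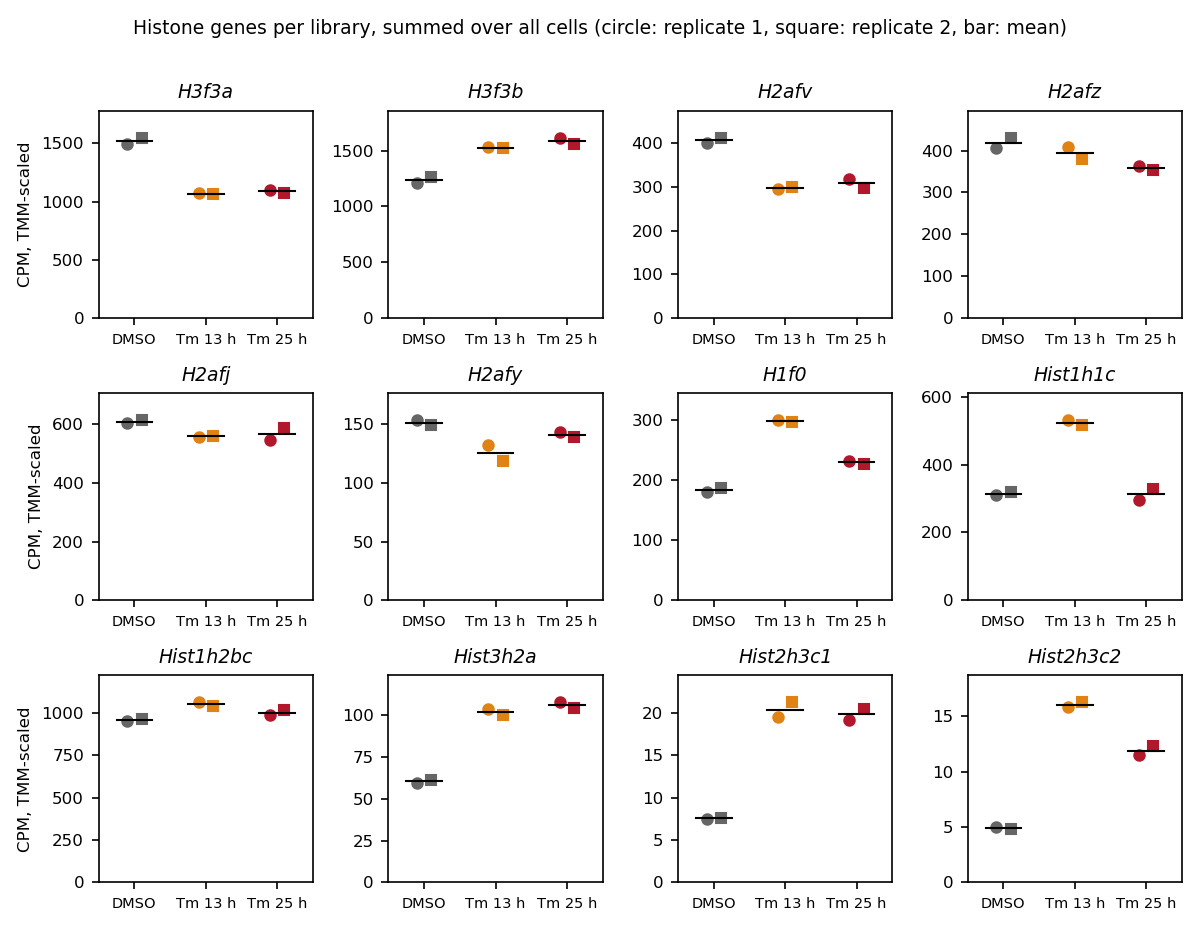
CPM from TMM-scaled libraries (y axis, from 0) of 12 histone genes in each library, summed over all cells, for DMSO, 13 h and 25 h of tunicamycin (Tm). Circles are replicate 1, squares replicate 2 and bars the mean; Hist1h1c is high at 13 h alone, and Hist2h3c1 is near 20 CPM at both times and near 7.6 CPM in DMSO.

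Among core histones of the clusters, 3 tested genes encode H3.2. All of them rose at 13 h, and Hist2h3c1 and Hist2h3c2 also at 25 h, where 21.4% and 24.5% of all genes rose. Hist2h3c1 (chr3:96246685-96248509) and Hist2h3c2 (chr3:96238108-96239127) lie in the Hist2 cluster. Hist2h3c1 was at 7.52 and 7.64 CPM in DMSO, 19.5 and 21.3 at 13 h, then 19.2 and 20.5 at 25 h. Hist2h3c2 was at 5.00 and 4.81 CPM in DMSO, 15.9 and 16.3 at 13 h, then 11.5 and 12.3 at 25 h. Neither gene had a tunicamycin value near its DMSO values. Hist2h3c1 rose 2.69-fold at 13 h (log2 1.43 ± 0.10, edgeR adjusted p = 2.76e-07) and 2.62-fold at 25 h (log2 1.39 ± 0.10, edgeR adjusted p = 4.43e-07). All 50-base words of the 3' end of Hist2h3c1 also occur in Gm20634. That gene overlaps it on the same strand and has no row in the deposited matrix, so molecules of these genes cannot be told apart there. Hist2h3c2 rose 3.27-fold at 13 h (log2 1.71 ± 0.11, edgeR adjusted p = 2.08e-07) and 2.43-fold at 25 h (log2 1.28 ± 0.13, edgeR adjusted p = 4.89e-06). It fell by 0.43 ± 0.11 at 25 h against 13 h (edgeR adjusted p = 0.0165), a call lost with DESeq2 and without either 13 h library or the first 25 h library. Of its 50-base words at the 3' end, 21.5% also occur at other loci, among them Hist2h3c1 and Hist2h3b. In thinned cells Hist2h3c1 was seen in 3.89% and 3.84% of cells in DMSO, 9.47% and 8.65% at 13 h, then 10.7% and 10.2% at 25 h. Unthinned, the shares were 10.95% and 10.9%, 25.0% and 27.9%, and 25.0% and 27.7%. The third tested H3 gene, Hist1h3d, encodes the same protein as Hist2h3c2 and rose by 0.54 ± 0.20 at 13 h (edgeR adjusted p = 0.0426), a call lost in 7 of the 15 alternative settings. At 25 h its difference of 0.22 ± 0.22 did not pass (edgeR adjusted p = 0.43).

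Of the H2A genes, Hist3h2a (chr11:58954685-58956830) was at 59.6 and 61.2 CPM in DMSO, 103 and 100.05 at 13 h, then 107 and 104 at 25 h. All tunicamycin libraries were above both DMSO libraries. It rose by 0.75 ± 0.05 at 13 h (edgeR adjusted p = 2e-07) and by 0.81 ± 0.05 at 25 h (edgeR adjusted p = 1.05e-07). It overlaps Trim17 on the same strand, and how reads in the overlap were counted is not known. In thinned cells Hist3h2a was seen in 22.8% and 23.9% of cells in DMSO, 39.0% and 37.1% at 13 h, then 39.6% and 37.2% at 25 h, and unthinned in 52.9% and 53.8%, 74.4% and 75.3%, and 77.3% and 79.1%. Hist2h2aa1 was at 3.84 and 4.70 CPM in DMSO, 7.30 and 6.94 at 13 h, then 9.1 and 6.46 at 25 h, and rose by 0.74 ± 0.18 and 0.86 ± 0.19 (edgeR adjusted p = 0.00598 and 0.00278). All 50-base words of its 3' end occur at other loci, Hist2h2aa2 among them, so its counts are uncertain. Its 13 h call was lost without the first DMSO library (adjusted p = 0.0558). Hist1h2ap, whose annotated end lies 3 bases after the stem-loop, averaged 1.73 ± 0.36 CPM in DMSO, 4.70 ± 0.43 CPM at 13 h and 5.95 ± 1.4 CPM at 25 h (SD, n = 2 each). It rose by 1.45 ± 0.24 and 1.79 ± 0.25 (edgeR adjusted p = 4.34e-04 and 7.97e-05), and 93.1% of its 3' words occur at other H2A loci, so this is the sum of what the counting assigned to it. Hist1h2al, annotated as a processed pseudogene, fell by 1.26 ± 0.47 at 25 h (edgeR adjusted p = 0.0428), and 67.6% of its words occur elsewhere. That call was lost in 8 of the 15 settings, among them without each DMSO and each 25 h library.

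The H2B genes were led by Hist1h2bc (chr13:23684199-23692908). It was at 950.4 and 961 CPM in DMSO, 1061 and 1040.3 at 13 h, then 987 and 1014 at 25 h. All tunicamycin libraries were above both DMSO libraries, by little. It rose by 0.14 ± 0.04 at 13 h (edgeR adjusted p = 0.0263), a call lost without the first DMSO or the first 13 h library (adjusted p up to 0.17). Its difference of 0.07 ± 0.04 at 25 h did not pass (edgeR adjusted p = 0.247). Hist3h2ba was at 9.84 and 11.4 CPM in DMSO, 12.2 and 10.2 at 13 h, then 14.3 and 15.1 at 25 h. Its 25 h libraries were above the other 4. It rose by 0.47 ± 0.12 at 25 h against DMSO (edgeR adjusted p = 0.00791), a call lost without the first DMSO library (adjusted p = 0.0685). Hist1h2be rose by 0.79 ± 0.21 at 13 h and 0.80 ± 0.22 at 25 h (edgeR adjusted p = 0.00784 and 0.00962). It overlaps Hist1h1e on the same strand, and its 13 h call was lost without the second 13 h library. Its 25 h call was lost without the first 25 h library and with the stricter filter on cells.

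Of the 6 tested H4 genes, 3 rose at 13 h and 2 at 25 h, where 21.4% and 24.5% of all genes rose. Hist2h4 averaged 2.36 ± 0.51 CPM in DMSO, 5.32 ± 0.26 CPM at 13 h and 4.77 ± 1.2 CPM at 25 h (SD, n = 2 each), and rose by 1.18 ± 0.22 and 1.01 ± 0.24 (edgeR adjusted p = 0.00103 and 0.00427). Without the first 25 h library its 25 h call was lost (adjusted p = 0.0612). Hist1h4i averaged 41.1 ± 0.56 CPM at 13 h and 31.7 ± 0.64 CPM in DMSO (SD, n = 2 each), and rose by 0.37 ± 0.11 (edgeR adjusted p = 0.0135), a call lost when any library of those groups was left out (adjusted p up to 0.0652). Its 25 h libraries differed, at 30.9 and 43.2 CPM, and the difference of 0.23 ± 0.11 from DMSO did not pass (edgeR adjusted p = 0.118). Hist1h4i, Hist1h4h and Hist2h4 encode the same protein of 103 residues, and Hist1h4i differs from the others at 13 and 36 of 312 coding bases. Hist1h4h rose by 0.35 ± 0.11 at 13 h (edgeR adjusted p = 0.0249), lost in 4 settings, and Hist1h4j by 1.09 ± 0.42 at 25 h (edgeR adjusted p = 0.0483), lost in 9. Hist1h2bg, at 55 UMIs the lowest tested member, had a difference of 1.22 ± 0.45 at 13 h (edgeR adjusted p = 0.0417), lost in 9 settings. At so few UMIs it could pass the count filter through the 13 h libraries alone. Its call, counted above among the members that rose, is therefore no evidence of a rise. Of the 50-base words at the 3' end, 45.8% in Hist1h4h and 50.8% in Hist1h2bg occur at other loci. Of the called members, 11 of 19 at 13 h and 10 of 16 at 25 h kept their call under all 15 alternatives.

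In enterocytes alone the counts were 16 higher and 3 lower of 29 tested members at 13 h (23.8% and 23.8% of all genes tested there, 47.6% in either direction), and 12 higher and 4 lower at 25 h (26.1% and 24.2%, 50.3% in either). At 25 h against 13 h, 1 member rose (Hist3h2ba) and 5 fell (Hist1h1c, H2afx, H1f0, Hist2h3c2 and H2afz), where 10.4% and 10.9% of all genes did. Of these 6 calls, Hist2h3c2 was lost in 9 of the 15 settings (adjusted p up to 0.244), H2afz in 7 (up to 0.218), H2afx in 3 (up to 0.0706) and Hist3h2ba in 3 (up to 0.15). Cluster genes made 1390.5 and 1411 UMIs per 1000000 in DMSO enterocytes, 1895 and 1853 at 13 h, then 1624 and 1668 at 25 h, and the groups were apart. In enterocytes Hist2h3c2 rose by 1.77 ± 0.12 at 13 h and 1.40 ± 0.14 at 25 h on the log2 scale (edgeR adjusted p = 4.06e-08 and 1.67e-06). Hist2h3c1 rose there by 1.47 ± 0.12 and 1.40 ± 0.13 (edgeR adjusted p = 2.36e-07 and 8.71e-07), and Hist3h2a by 0.80 ± 0.05 and 0.85 ± 0.05 (edgeR adjusted p = 1.71e-08 and 1.14e-08). H1f0 rose by 0.75 ± 0.05 and 0.33 ± 0.05 (edgeR adjusted p = 8.23e-09 and 4.5e-05). Hist1h1c rose by 0.76 ± 0.05 at 13 h (edgeR adjusted p = 5.26e-08), and its difference of 0.08 ± 0.06 at 25 h did not pass (edgeR adjusted p = 0.265). H3f3a in enterocytes was at 1506 and 1524 CPM in DMSO, 1102 and 1081 at 13 h, then 1118 and 1117 at 25 h. H3f3b in enterocytes was at 1114 and 1183 CPM in DMSO, 1471 and 1464 at 13 h, then 1506 and 1479.9 at 25 h. The opposite movement of H3f3a and H3f3b was therefore also measured within a single class.

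In goblet cells, the mucus-secreting class, 18 members could be tested. At 13 h, 6 rose and 2 fell, where 10.8% of all genes rose and 11.5% fell, and at 25 h 3 rose and 2 fell, where 15.8% rose and 16% fell. At 25 h against 13 h, Hist1h1c alone was called, lower by 1.14 ± 0.11 (edgeR adjusted p = 1.86e-06), where 1.47% of all genes fell and 2.03% rose, 3.5% in either direction. Hist1h1c was at 270 and 232 CPM in DMSO, 526 and 527 at 13 h, then 236 and 242 at 25 h. The 13 h libraries stood far above the others. H3f3a was at 1503 and 1558 CPM in DMSO goblet cells, 944 and 901 at 13 h, then 964 and 917 at 25 h, and fell by 0.73 ± 0.09 and 0.70 ± 0.09 (edgeR adjusted p = 8.34e-06 and 7.76e-06). H3f3b was at 1803 and 1746 CPM in DMSO goblet cells, 2020.1 and 2085 at 13 h, then 2138 and 2059 at 25 h. Its difference of 0.21 ± 0.09 at 13 h did not pass (edgeR adjusted p = 0.106), and its rise of 0.24 ± 0.09 at 25 h (edgeR adjusted p = 0.0463) was lost in 10 of the 15 settings. Cluster genes made 1084 and 1042 UMIs per 1000000 in DMSO goblet cells, 1676 and 1752 at 13 h, then 1318 and 1289.96 at 25 h, and the groups were apart there too. In goblet cells Hist3h2a rose by 1.02 ± 0.16 at 13 h and 1.08 ± 0.15 at 25 h (edgeR adjusted p = 9.37e-05 and 1.76e-05). Hist2h3c1 rose by 1.25 ± 0.30 and 1.13 ± 0.29 (edgeR adjusted p = 0.00436 and 0.00502), calls lost without the first DMSO library and in 1 and 2 further settings. H1f0 rose by 0.54 ± 0.12 at 13 h (edgeR adjusted p = 0.00187), lost without the second DMSO library, and its difference of 0.15 ± 0.12 at 25 h did not pass (edgeR adjusted p = 0.373). Hist2h3c2 rose by 1.74 ± 0.45 at 13 h (edgeR adjusted p = 0.00771), lost in 4 settings, and its difference of 1.07 ± 0.48 at 25 h did not pass (edgeR adjusted p = 0.0964). The count of members that rose in goblet cells was 3 without the first DMSO library at 13 h, and 1 at 25 h. With libraries scaled to total counts, the median of all goblet genes shifted by 0.16 at 13 h and 0.13 at 25 h on the log2 scale, and 11 members rose at 13 h.

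The classes also differed before treatment. In DMSO, goblet cells against enterocytes, 5 of 25 tested members were higher and 4 lower, where 17% of 10458 genes were higher and 18.1% lower. H3f3b averaged 1848 ± 50 CPM in goblet cells and 1127 ± 43 CPM in enterocytes (SD, n = 2 each; log2 0.71 ± 0.06, edgeR adjusted p = 2.09e-12). H1f0 averaged 282 ± 32 CPM in goblet cells and 171 ± 3.4 CPM in enterocytes (log2 0.71 ± 0.08, edgeR adjusted p = 5.05e-09), and H2afv 568 ± 27 CPM in goblet cells and 393 ± 2.6 CPM in enterocytes (log2 0.53 ± 0.08, edgeR adjusted p = 2.4e-07). H2afx and Hist2h3c1 were higher too, by 1.30 ± 0.24 and 1.16 ± 0.30. Lower in goblet cells were Hist1h4h by -1.14 ± 0.34, Hist1h4i by -1.07 ± 0.23, Hist1h2bc by -0.26 ± 0.07 and Hist1h1c by -0.24 ± 0.09 on the log2 scale. These class sums of the same libraries share each library, which entered the fit as a block. The CPM here come from scaling both classes together, so they differ from the values within each class given above.

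The response itself differed between goblet cells and enterocytes for few members. At 25 h, 4.5% of 10458 genes had a lower response in goblet cells and 2.55% a higher, and 3 of 25 members had a lower. H2afv changed by -0.79 ± 0.10 in goblet cells and -0.35 ± 0.05 in enterocytes on the log2 scale, a difference of -0.48 ± 0.11 (edgeR interaction, adjusted p = 0.00259). H3f3a had a difference of -0.30 ± 0.09 (edgeR interaction, adjusted p = 0.0308), and Hist3h2ba of -1.60 ± 0.43 (edgeR interaction, adjusted p = 0.0139). At 13 h, where 3.33% of genes had a lower response and 1.48% a higher, H2afv had a difference of -0.37 ± 0.11 and H3f3a of -0.30 ± 0.09 (edgeR interaction, adjusted p = 0.0372 and 0.0468). For H3f3b, Hist1h1c, H1f0 and Hist3h2a the interaction did not pass at either time. The ratio of H3f3b to H3f3a UMIs was 1.20 and 1.12 in DMSO goblet cells, 2.14 and 2.31 at 13 h, then 2.22 and 2.25 at 25 h. In enterocytes the ratio was 0.740 and 0.776 in DMSO, 1.34 and 1.35 at 13 h, then 1.35 and 1.33 at 25 h. All goblet values at a given time were above those of enterocytes.

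**Figure D4:**
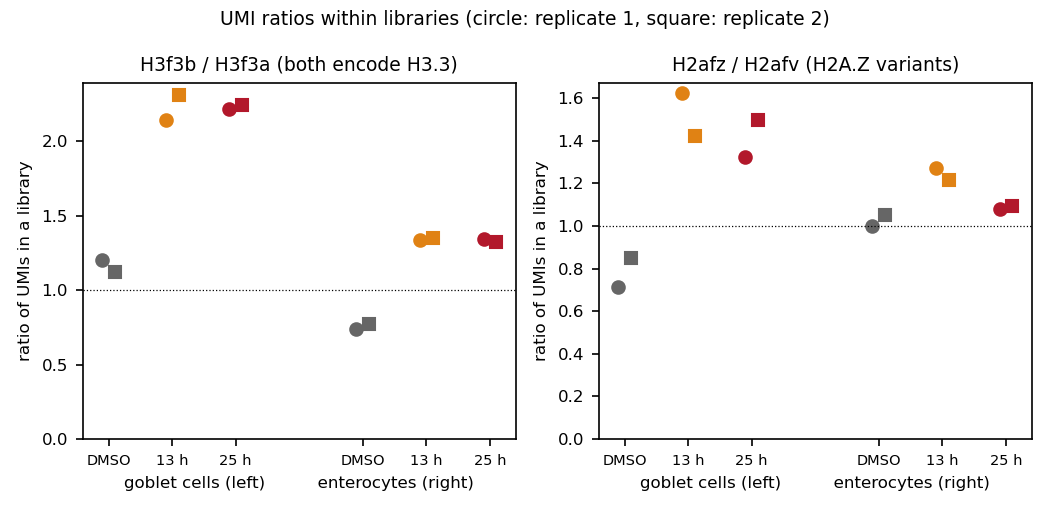
Ratio of UMIs of H3f3b to H3f3a (left panel) and of H2afz to H2afv (right panel) in each library, for goblet cells and enterocytes in DMSO and at 13 h and 25 h of tunicamycin. Circles are replicate 1 and squares replicate 2, and the dotted line is at 1; in goblet cells the H2afz to H2afv ratio was 0.713 and 0.848 in DMSO, 1.63 and 1.42 at 13 h, then 1.33 and 1.496 at 25 h.

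In the class named tuft, H3f3b made 2183 and 2082 UMIs per 1000000 in DMSO, 2031 and 2013 at 13 h, then 1967 and 1884 at 25 h. H3f3a made 1278 and 1318 UMIs per 1000000 in DMSO, 956 and 1179 at 13 h, then 1350.4 and 809 at 25 h. Given the mixed markers and the 12 to 27 cells per library, these were not compared.

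Cells with UMIs of at least 2 genes of the G2 and M phase list numbered 13 and 7 in DMSO, 7 and 3 at 13 h, then 3 and 4 at 25 h. Most of them had exactly 2 such genes in DMSO (10 and 7 cells). A further 115 and 104 cells in DMSO, 66 and 67 at 13 h, then 37 and 43 at 25 h had exactly 1. In the cells with at least 2, cluster genes made between 1307 and 1716 UMIs per 1000000, and in the other cells 1381 and 1385 in DMSO, 1899 and 1854 at 13 h, then 1567 and 1601 at 25 h. These sums mix the classes. Within enterocytes, cells with at least 2 averaged 1559 ± 102 in DMSO, 2435 ± 267 at 13 h and 1999 ± 705 at 25 h (SD, n = 2 each). The other enterocytes averaged 1399, 1872 and 1643. In the class named tuft at 13 h, the means were 1126 ± 224 in cells with at least 2 and 2483 ± 357 in the others. The cells with at least 2 were between 0.365% and 1.10% of each library, so leaving them out could move the sums little, and the part of dividing cells in the cluster sums was not tested. Of 21 tested S phase genes, 1 rose (Gins2, of the replicative helicase complex) and 4 fell at 13 h, and 4 fell at 25 h. The falls were 19.0% of the list at each time, where 24.3% of all genes fell at 13 h and 26.1% at 25 h. In either direction, 23.8% and 19.0% of the list were called, against 45.7% and 50.5% of all genes. The DNA clamp Pcna was at 35.6 and 33.4 CPM in DMSO, 32.7 and 31.1 at 13 h, then 20.8 and 18.5 at 25 h, and fell by 0.82 ± 0.08 at 25 h (edgeR adjusted p = 5.48e-06). The ribonucleotide reductase subunit Rrm1 fell by 0.90 ± 0.24 at 13 h and 1.14 ± 0.27 at 25 h, and the DNA ligase Lig1 by 0.89 ± 0.21 and 0.73 ± 0.23 (edgeR adjusted p = 0.00821, 0.00362, 0.00473 and 0.0183).

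Of 16 tested genes that process the histone 3' end or degrade the mRNA, 3 rose and 1 fell at 13 h, and 3 rose and 2 fell at 25 h. These calls were 25% of the list at 13 h and 31.25% at 25 h, against 45.7% and 50.5% of all genes. Slbp, which encodes the protein that binds the stem-loop, was at 32.5 and 33.3 CPM in DMSO, 26.5 and 23.8 at 13 h, then 25.0 and 22.1 at 25 h. All tunicamycin libraries were below both DMSO libraries. Slbp fell by 0.39 ± 0.08 at 13 h and 0.49 ± 0.08 at 25 h (edgeR adjusted p = 0.00145 and 4.38e-04). It is also on the S phase list above, so its falls are counted in both lists. Lsm1, of the decay complex, rose by 0.27 ± 0.05 and 0.36 ± 0.05 (edgeR adjusted p = 0.00103 and 1.23e-04), Lsm10 of the U7 particle by 0.24 ± 0.07 and 0.28 ± 0.07 (edgeR adjusted p = 0.0119 and 0.00605), and Lsm11 by 0.81 ± 0.18 at 25 h (edgeR adjusted p = 0.00239).

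Of 26 tested chaperones and assembly factors, 8 rose and 2 fell at 13 h, and 6 rose and 2 fell at 25 h. These calls were 38.5% of the list at 13 h and 30.8% at 25 h, below the 45.7% and 50.5% of all genes. The rises were 30.8% and 23.1% of the list, against 21.4% and 24.5% of all genes. Npm3, a nucleoplasmin family chaperone, was at 13.5 and 11.2 CPM in DMSO, 28.7 and 28.0 at 13 h, then 34.2 and 43.7 at 25 h. Npm1, of the same family and a main protein of the nucleolus, was at 202 and 189 CPM in DMSO, 267 and 272 at 13 h, then 462 and 467 at 25 h. Npm3 rose by 1.20 ± 0.12 and 1.66 ± 0.12 (edgeR adjusted p = 6.83e-06 and 3.27e-07), and Npm1 by 0.46 ± 0.05 and 1.25 ± 0.05 (edgeR adjusted p = 1.18e-05 and 2.08e-09). Set rose by 0.63 ± 0.06 and 0.65 ± 0.06 (edgeR adjusted p = 3.23e-06 and 2.33e-06). Of 14 tested genes of cell cycle exit, 3 rose and 7 fell at 13 h, and 3 rose and 8 fell at 25 h. Gadd45a, a stress-induced growth arrest gene, rose by 0.99 ± 0.05 and 1.09 ± 0.05 (edgeR adjusted p = 3.35e-08 and 1.38e-08), and Gadd45b fell by 0.96 ± 0.08 and 1.08 ± 0.08 (edgeR adjusted p = 1.13e-06 and 5.93e-07). Calls in either direction were 71.4% of the cell cycle exit list at 13 h and 78.6% at 25 h. Of all genes, 45.7% were called at 13 h and 50.5% at 25 h.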

How the data were processed

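The authors deposited raw counts of UMIs for 27998 genes and 5122 cells in a single matrix. The submitters' processing notes name Cell Ranger and mm10. The version, the cell filter before deposit, the way classes were assigned and the handling of reads shared by loci were not given in the sources used here. Library and class (enterocyte, goblet or tuft) were read from the cell names, per the file headers, and 12 barcodes occur in 2 or more libraries. Symbols came from GENCODE vM21 (GRCm38), which matched 27645 identifiers. The members and all gene lists were chosen with earlier results of these data known.

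Kept were 5026 cells with 1000 or more UMIs, 500 or more genes and no more than 25% of UMIs from mitochondria, and doublets were not called. Counts were summed per library and class and tested with edgeR 4.0.16 in R 4.3.3: filterByExpr, TMM scaling, and the quasi-likelihood test of all 6 libraries, with Benjamini-Hochberg adjustment over all genes and a threshold of 0.05. Class responses were tested as an interaction with each library as a block. edgeR's common spread between libraries (coefficient of variation) came to 0.0493 for all cells, 0.0418 for enterocytes and 0.0788 for goblet cells. The p-values measure the spread between 2 libraries per group. The edgeR steps were tested on simulated data. Alternatives were DESeq2 1.42.0, its size factors, total-count scaling, no filter on low counts, other cell filters, only the groups compared, the replicate block and leaving out each library.

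Values in every library are given for the 6 members with the largest rise and the 6 with the largest fall past the threshold at a mean of at least 5 CPM, and for each tested variant. Up to 4 genes per list are named, by adjusted p. No genome was used: the stem-loop was searched in annotated transcripts, and promoters are RefSeq windows, matched by 60 cluster genes and 14 variants.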

Additional observations from a re-analysis of the deposited data

Results flagged for a closer look

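Members whose response differed between the classes in the edgeR interaction test are given here as values, with goblet cells minus enterocytes on the log2 scale. At 25 h against DMSO the difference was -0.30 for H3f3a, -0.48 for H2afv and -1.60 for Hist3h2ba. At 13 h against DMSO it was -0.30 for H3f3a and -0.37 for H2afv. H3f3a and H2afv were lower in every tunicamycin library than in both DMSO libraries in both classes. Hist3h2ba had few UMIs in goblet cells, at 4.74 and 9.38 CPM at 25 h and 13.4 and 13.4 CPM in DMSO. Without the library block, the adjusted p was 0.087 for H3f3a at 13 h and 0.0613 at 25 h, and 0.00384 for H2afv at 25 h. Goblet cells came from 75 to 109 cells per library and enterocytes from 426 to 1046, and the part of this difference in depth was not tested.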

How the results depend on the processing

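No result turned its direction: of 1392 values of 93 calls of single members over 15 alternative settings, 1248 kept the call and 144 lost it, and 55 calls were never lost. Counts of members that stayed within 1.5 times are not listed. In all cells at 25 h against 13 h, 0 members rose and 3 fell. Instead 1 rose with no filter on low counts, with all deposited cells and without cells with G2 and M markers, and 7 fell with no filter. Leaving out a library gave 0 to 1 and 2 to 4. In enterocytes at 13 h against DMSO, 3 fell, and 5 with no filter or only the groups compared (3 to 5 leaving out a library). In enterocytes at 25 h against 13 h, 1 rose and 5 fell. There 2 rose with no filter, all deposited cells or without cells with G2 and M markers, DESeq2 called 0 and 2, and leaving out a library gave 0 to 2 and 3 to 4. In goblet cells at 25 h against DMSO, 3 rose, 1 with DESeq2 and 1 to 3 leaving out a library. In goblet cells at 13 h against DMSO, 6 rose, 11 with total counts and 3 to 6 leaving out a library. At 25 h against 13 h in goblet cells 1 fell, 3 with no filter, and 2 with total counts or the stricter cell filter. The interaction at 13 h held 2 members, and 1 with no sample block. With all deposited cells, cluster genes in DMSO made 1378 instead of 1384 UMIs per 1000000, and variants at 13 h 4356 instead of 4377.

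With total counts, 58.9% of the called genes at 13 h were higher, against 46.8% with TMM, and members called were 17 higher and 3 lower. Replicate numbers did not pair the libraries, with correlations of deviations from -0.077 to 0.059. With the replicate block, 2 members rose and 3 fell in enterocytes at 25 h against 13 h, and all-cell counts were 15 and 3 at 13 h and 12 and 3 at 25 h. With 2 libraries per group, and 52 members under the count filter, smaller changes were not detectable at this depth.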
